A study of Mus musculus with 35 samples.

Results

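Chromatin accessibility was compared between D2 and D0 of the exit from naive pluripotency in TET_KO cells, mouse embryonic stem cells in which Tet1, Tet2 and Tet3 are all knocked out. At D2 the TET_KO cells had been taken for 2 days towards epiblast-like cells (EpiLC), and at D0 the same line was kept naive in 2i and Lif. The comparison used 5 of the 35 libraries of the series, replicates 1 and 3 at D2 and replicates 1, 2 and 3 at D0, chosen by genotype and day. TET_WT, the parental line of TET_KO, was set beside it at both days with 3 libraries each. DNMT_KO cells, which lack Dnmt1, Dnmt3a and Dnmt3b, and their parental line DNMT_WT were used in the same way, also with 3 libraries for each day. The labels give 1 line per genotype and name no clone, so a feature of this one line and an effect of the missing TET enzymes cannot be told apart. The knockout was present in both the D2 and the D0 cells, which means that the comparison reads the exit within a line that had grown without TET. All libraries were made by ATAC-seq from 10000 cells with 13 PCR cycles.

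Naive embryonic stem cells correspond to the early epiblast of the blastocyst. When inhibitors and Lif are withdrawn, they shut down a network of transcription factors that includes Tfcp2l1, Esrrb, Klf4 and Zfp42 and enter a formative state marked by Fgf5, Otx2, Pou3f1 and the de novo methyltransferases, while Pou5f1 and Sox2 stay on. The TET enzymes oxidise 5-methylcytosine and keep many enhancers unmethylated. ATAC-seq counts where a transposase can insert adapters, so a high count marks open DNA. Since the cells were sequenced in bulk, fewer cells with an open site and less opening per cell cannot be told apart.

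Accessibility was read in tiles of 2 kb. The 5 libraries held 6633228 and 12535322 reads in tiles at D2 and 9841851, 7222276 and 6036825 at D0, and the median tested tile held 10 and 19 reads at D2 and 16, 12 and 9 at D0. Levels are log2 RPKM (the binary logarithm of reads per kilobase and megaread) after quantile normalisation, and changes are log2 differences, D2 minus D0, with the standard error of a limma fit over the 23 libraries of D0 and D2. A call is a 2-sided Benjamini-Hochberg adjusted p under 0.05 over all 129798 tested autosomal tiles or over all 20414 gene neighbourhoods. A neighbourhood averages the tested tiles that have a given gene start as their nearest start, up to 50 kb away. For genes without an entry in the promoter table the start was inferred as the more accessible end of the gene, and among genes with a printed distance or a profile these are Trps1, Jam2, Prdm14 and Tdh. Replicates correlated with r = 0.71 at D2 and r = 0.64 to 0.67 at D0 across tested tiles. The labels do not say that replicates were separate cultures, so p-values measure the spread between these libraries, which may be technical.

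Promoters of 4 genes from the pluripotency, formative and Nodal lists lay in tiles that changed. They are shown because they are the only called start tiles among listed genes with a start in the promoter table, and they include both directions. Krt18 encodes an epithelial keratin, Utf1 a chromatin-associated factor of pluripotent cells, Tfcp2l1 a DNA-binding factor required for naive self-renewal and Nodal a signal of the epiblast. Each window runs from 250 bases before to 50 bases after the gene start, from RefSeq on GRCm38.p6, all on the plus strand, with each CpG, the site of DNA methylation, in capitals. The Krt18 window is chr15:102027966-102028265, the Utf1 window chr7:139943606-139943905, the Tfcp2l1 window chr1:118627695-118627994 and the Nodal window chr10:61417722-61418021.
Krt18: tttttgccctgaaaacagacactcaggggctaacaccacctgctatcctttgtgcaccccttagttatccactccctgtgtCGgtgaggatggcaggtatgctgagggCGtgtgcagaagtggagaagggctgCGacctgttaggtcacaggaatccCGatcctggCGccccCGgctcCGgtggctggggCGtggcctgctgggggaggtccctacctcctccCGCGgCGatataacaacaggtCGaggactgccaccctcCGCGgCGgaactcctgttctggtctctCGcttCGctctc
Utf1: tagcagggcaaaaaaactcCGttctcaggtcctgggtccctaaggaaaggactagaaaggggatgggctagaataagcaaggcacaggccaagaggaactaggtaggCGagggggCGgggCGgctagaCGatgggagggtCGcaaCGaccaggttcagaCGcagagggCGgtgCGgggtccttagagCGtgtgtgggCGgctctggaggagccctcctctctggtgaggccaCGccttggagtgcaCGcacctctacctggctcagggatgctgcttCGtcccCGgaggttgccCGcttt
Tfcp2l1: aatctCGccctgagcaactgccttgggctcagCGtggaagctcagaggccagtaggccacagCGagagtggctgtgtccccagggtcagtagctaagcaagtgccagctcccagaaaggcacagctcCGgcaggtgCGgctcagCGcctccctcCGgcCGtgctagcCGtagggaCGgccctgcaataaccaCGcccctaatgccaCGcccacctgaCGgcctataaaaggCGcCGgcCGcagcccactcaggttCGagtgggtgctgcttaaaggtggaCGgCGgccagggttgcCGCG
Nodal: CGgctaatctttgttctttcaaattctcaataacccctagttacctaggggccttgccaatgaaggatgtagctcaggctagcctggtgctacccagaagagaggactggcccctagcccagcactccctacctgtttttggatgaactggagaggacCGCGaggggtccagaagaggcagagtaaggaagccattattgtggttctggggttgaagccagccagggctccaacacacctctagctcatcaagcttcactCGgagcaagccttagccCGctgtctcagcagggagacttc
The windows held 17 CpG in Krt18, 17 in Utf1, 21 in Tfcp2l1 and 5 in Nodal. The Krt18 start tile had 24 and 38 reads at D2, against 5, 7 and 7 at D0 (log2 change 2.01 ± 0.40, limma adjusted p = 0.0116). The Utf1 start tile had 25 and 54 reads at D2, against 18, 8 and 8 at D0 (1.48 ± 0.33, adjusted p = 0.0276). Both opened in every D2 library relative to every D0 library. The Tfcp2l1 start tile had 16 and 29 reads at D2, against 59, 39 and 32 at D0 (-1.11 ± 0.26, adjusted p = 0.0313), and the Nodal start tile 16 and 33 at D2, against 51, 44 and 39 at D0 (-1.09 ± 0.25, adjusted p = 0.0303). After normalisation for depth the D2 libraries lay below the D0 libraries at both. Each of the 4 calls was lost in some fit that left out 1 TET_KO library. Krt18 lost it without D2 replicate 1 (adjusted p = 0.125), D2 replicate 3 (0.0735) or D0 replicate 1 (0.0567), and Utf1 lost it without D2 replicate 1 (0.111), D2 replicate 3 (0.243), D0 replicate 2 (0.121) or D0 replicate 3 (0.0762). Tfcp2l1 kept it only without D0 replicate 3 (0.0464), and Nodal lost it in all 5 such fits (0.0756 to 0.262).

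The targeted genes were read as a check of the labels. A tile inside Tet3 (83372001 to 83374000 of chromosome 6 in GRCm38, the gene spanning 83362373 to 83457208) gave 2 and 5 reads in TET_KO at D2 and 1, 2 and 2 in TET_KO at D0, against 14, 7 and 18 in TET_WT at D2 and 26, 8 and 13 in TET_WT at D0. A tile inside Tet1 (62814001 to 62816000 of chromosome 10, the gene spanning 62804570 to 62887469) gave 0 and 1 reads in TET_KO at D2 and 3, 8 and 5 in TET_KO at D0, against 13, 9 and 6 in TET_WT at D2 and 38, 7 and 9 in TET_WT at D0. At Tet3 the TET_KO reads were below every TET_WT library, and at Tet1 the D0 ranges of the 2 lines overlapped in reads. For Tet2 the tile with the lowest share of TET_KO reads (133486001 to 133488000 of chromosome 3, the gene spanning 133463677 to 133545136) had 5 and 11 reads in TET_KO at D2 and 18, 9 and 9 at D0, against 12, 7 and 15 in TET_WT at D2 and 65, 18 and 34 at D0. A knockout need not remove a tile of sequence, so accessibility does not check Tet2. These tiles were picked as the lowest of each gene and carry no test. Another Tet2 tile, 19.4 kb from the gene start, closed on exit in TET_KO, with 6 and 21 reads at D2 against 62, 72 and 66 at D0 (-2.63 ± 0.41, adjusted p = 0.00189), and its change in TET_WT was -2.62. A tile 11.7 kb from the start of Tet1, outside the gene, fell too, with 7 and 18 reads at D2 against 33, 22 and 19 at D0. Its change was -1.20 ± 0.27 in TET_KO (limma adjusted p = 0.0282) and -0.43 in TET_WT, where it was not called. The neighbourhoods of Tet1, Tet2 and Tet3 were not called.

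Many more tiles closed than opened. Of the 129798 tiles 1343 were called (1.03%), of which 1162 were lower at D2 (0.895%) and 181 higher (0.139%). Limma voom on recovered reads called 881 lower and 301 higher. At each called tile all D2 libraries lay on one side of all D0 libraries, as was so for 13.9% of all tiles downward and 14.7% upward. Among the tiles that fell, 1157 changed at least 2-fold, 506 at least 4-fold and 41 at least 8-fold. Among those that rose, 180 changed at least 2-fold, 64 at least 4-fold and 1 at least 8-fold. Tiles that closed had a median level of -1.07 and -1.06 at D2, against 0.83, 0.85 and 0.84 at D0. Tiles that opened had a median level of 0.90 and 0.88 at D2, against -1.02, -0.84 and -0.72 at D0. These levels describe tiles chosen for the difference. The opening count rested on having both D2 libraries, with 10 tiles higher without D2 replicate 1 and 25 without D2 replicate 3, while 569 and 841 tiles were lower in these fits. Closing counts were also reduced without D0 replicate 1 (651), 2 (537) or 3 (634), and opening ones without D0 replicate 2 (117).

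Tiles that closed lay away from gene starts. A gene start from the promoter table lay in 2.24% of tiles that fell (26 tiles) and 11.6% of tiles that rose (21), against 13.6% of all tested tiles. Distances were taken to the nearest of all starts, inferred ones included. The median distance to the nearest gene start was 26.8 kb for falls, 23.1 kb for rises and 11.3 kb for all tested tiles. The share of tiles that closed was 0.140% within 1 kb of a gene start, 0.464% at 1 to 5 kb, 0.967% at 5 to 20 kb, 1.29% at 20 to 50 kb, 1.40% at 50 to 100 kb and 1.58% beyond 100 kb. The share that closed thus grew with each step away from a start. The classes were not filtered alike, since tiles with a gene start were tested at any level. For this reason 6659 tested tiles lay below the level asked of the others, and they belong to the tiles nearest a start. The part of this filter in the shares was not tested. The share of tiles that opened was between 0.0950 and 0.143% in each class up to 100 kb and 0.348% beyond it. Beyond 100 kb lay 24.3% of the tiles that opened and 17.2% of those that closed, against 9.75% of all tested tiles. Tiles that fell had another such tile next to them in 160 cases (13.8%), and tiles that rose in 10 cases (5.52%). Most called tiles thus had no tile called in the same direction next to them. Of all tested tiles, 71.2% had another tested tile next to them. A neighbour that was not called may still have changed, so these counts do not give the width of a change.

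**Figure D1:**
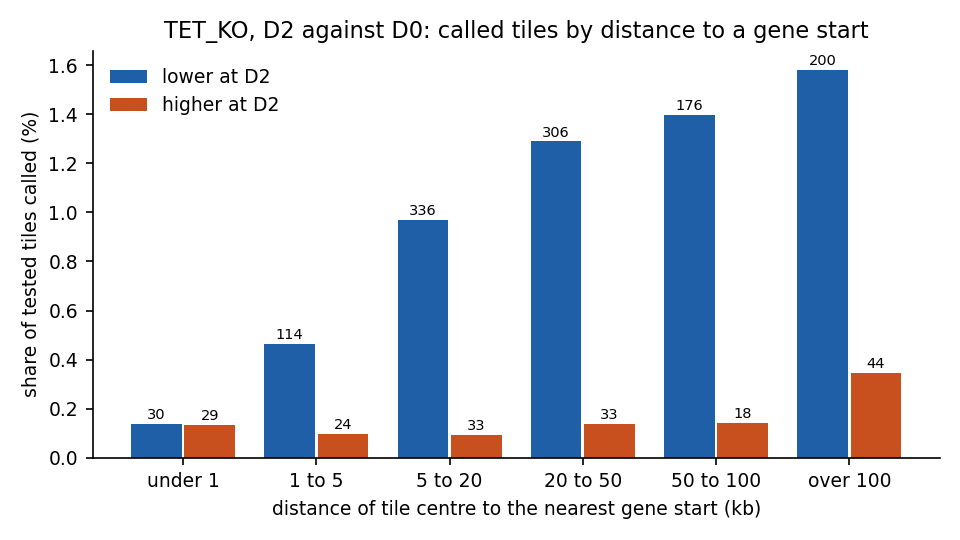
Share of tested tiles (%, y axis) called lower (blue) or higher (orange) in TET_KO at D2 against D0, by distance from the tile centre to the nearest gene start in kb (x axis), with the number of called tiles above each bar. The share of tiles called lower runs from 0.140% under 1 kb to 1.58% beyond 100 kb.

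The largest falls were at tiles within or near genes of varied function. A tile inside Filip1l, which encodes a filamin A interacting protein, had 4 and 3 reads at D2, against 56, 40 and 52 at D0 (chromosome 16, 57472001 to 57474000; -4.16 ± 0.65, limma adjusted p = 0.00184). A tile 10.4 kb from the start of Trps1, a GATA-type repressor, had 0 and 8 reads at D2, against 33, 34 and 44 at D0 (chromosome 15, 50900001 to 50902000; -4.15 ± 0.49, adjusted p = 0.000214). At both tiles every D2 library had under 10 reads and every D0 library over 30. A tile 32.6 kb from Atp1b1, a subunit of the sodium pump, had 2 and 4 reads at D2, against 28, 37 and 26 at D0 (chromosome 1, 164490001 to 164492000; -3.78 ± 0.46, adjusted p = 0.000238). A tile inside Jam2, a junctional adhesion molecule that is part of the naive list, had 1 and 10 reads at D2, against 43, 28 and 45 at D0 (chromosome 16, 84780001 to 84782000; -3.62 ± 0.46, adjusted p = 0.000334). The next falls, between -3.43 and -3.31, were at Kif18a (a mitotic kinesin), Chmp4c (an ESCRT subunit), Atg7 (an autophagy enzyme), Napb, Tpd52, Lonrf1, Pitpnc1 and LOC115488029. TET_WT changed by -0.40 at the Trps1 tile and by 0.27 at the Pitpnc1 tile, and by -2.57 to -0.99 at the other 10, of which Filip1l and Tpd52 were called there. The Trps1 tile fell in DNMT_WT (-3.53, limma adjusted p = 0.000106) and in DNMT_KO (-1.77, 0.0284). At the Pitpnc1 tile these lines changed by -0.75 and -1.27 and were not called. Without D2 replicate 3, Filip1l (adjusted p = 0.0600), Atg7 (0.0920) and Kif18a (0.242) lost the call, Kif18a also did so without D0 replicate 2 (0.0611) or 3 (0.0772), and Chmp4c did so without D2 replicate 1 (0.0999).

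Of the 12 largest rises 10 are given here, 2 of them at tiles that held a gene start. The start tile of Eps8l1, which encodes a relative of the actin regulator Eps8, had 25 and 29 reads at D2, against 2, 3 and 3 at D0 (chromosome 7, 4464001 to 4466000; 3.05 ± 0.63, limma adjusted p = 0.0160). The start tile of Ptprn, a phosphatase-like protein of secretory granules, had 21 and 37 reads at D2, against 12, 3 and 0 at D0 (chromosome 1, 75264001 to 75266000; 2.96 ± 0.58, adjusted p = 0.0103). A tile inside Naf1, an assembly factor of H/ACA ribonucleoproteins, had 20 and 35 reads at D2, against 2, 3 and 5 at D0 (2.81 ± 0.52, adjusted p = 0.00682). The D0 libraries were nearly empty at these 3 tiles, apart from replicate 1 at Ptprn. The others, between 2.36 and 2.71, were in or near Adgrb3 (an adhesion receptor), Spire1 (an actin nucleator), Spats2l, Xkr9, Nnt (the mitochondrial transhydrogenase), Memo1 and Galntl6. At Spats2l the tile had 28 and 59 reads at D2, against 9, 2 and 8 at D0, and it rose by 2.36 in TET_WT as well (adjusted p = 0.00613). At the other 9 tiles TET_WT was not called, with changes from 0.27 to 2.00. Each of the 10 rises lost its call without D2 replicate 1 (adjusted p = 0.0566 to 0.218), and all except Spire1 lost it without D2 replicate 3 (0.0561 to 0.220). Leaving out a D0 library also ended calls, at Eps8l1, Adgrb3, Xkr9 and Galntl6 without replicate 1 (0.0578 to 0.0937), at Adgrb3 and Galntl6 without replicate 2 (0.0829 and 0.0665) and at Memo1 without replicate 3 (0.0628).

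Called tiles with a gene start were few in both directions. Of 17595 tiles with a start from the promoter table, 21 rose (0.119%) and 26 fell (0.148%). Beside Eps8l1, Ptprn and Krt18, the largest rises were at Akap6 (an anchoring protein of protein kinase A), B3galt5, Ptprr (a phosphatase of MAP kinases), Gapt and Ntf3 (the growth factor neurotrophin 3), between 2.08 and 2.20. The start tile of Ptprr had 5 and 17 reads at D2, against 2, 1 and 2 at D0 (2.20 ± 0.32, limma adjusted p = 0.00120), and rose by 1.23 in TET_WT (adjusted p = 0.0367). The largest falls were at Olfr972 (an olfactory receptor), Mgat4f, Stard10 (a lipid transfer protein), Krtap31-2, Adcy7 (an adenylyl cyclase), Speer4f2, Trpm1 (a cation channel) and Nin (the centrosomal protein ninein), between -3.20 and -2.08. The start tile of Trpm1 had 6 and 11 reads at D2, against 40, 30 and 27 at D0 (-2.10 ± 0.34, adjusted p = 0.00266), and changed by -2.01 in TET_WT (adjusted p = 0.00156). At the 8 rises TET_WT changed by -0.92 (B3galt5) to 1.63 (Ptprn) and was called at Ptprr. At the 8 falls it changed by -2.01 (Trpm1) to 0.10 (Adcy7), with -0.58 at Olfr972, and was called at Trpm1 and Mgat4f (-1.70). Ptprr, Olfr972, Mgat4f and Trpm1 were called in each fit that left out 1 TET_KO library, while the other 12 start tiles named here each lost the call in at least 1 such fit. Olfr972, Krtap31-2 and Speer4f2 belong to large gene families, whose reads may be shared between copies. Promoters in tiles that rose held a median of 10 CpG (25 promoters) and those in tiles that fell 4 CpG (26 promoters), against 14 over all 20090 promoters of tested tiles. The motif TCAAGGTCA, bound by Esrrb and its relatives, and the octamer ATGCAAAT, bound by Pou5f1 and Pou3f1, were searched on both strands. Neither was found in the promoters of either set, and TCAAGGTCA was in 0.338% and ATGCAAAT in 1.67% of all 20090.

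Of 21 measured neighbourhoods of naive pluripotency genes, 5 fell and 0 rose, against 0.279% falling and 0.0833% rising among all neighbourhoods (57 and 17 of 20414). All gene lists, this one included, were chosen with earlier results of these data known, so shares set against the background are a description. The median change of the list was -0.40, against 0.05 over all neighbourhoods, and 18 of 21 changes were negative. At an unadjusted p under 0.05, 12 were lower and 0 higher, against 5.08% and 5.61% of all neighbourhoods. Of the 372 tested tiles near these genes, 27 fell and 0 rose, against 0.895% and 0.139% of all tested tiles. Relative to the mean of all neighbourhoods the list stood at -0.08 and -0.05 at D2, against 0.46, 0.49 and 0.39 at D0, so that the D2 and D0 libraries were apart. The number of naive neighbourhoods called was 1 without D2 replicate 3, 3 without D2 replicate 1, D0 replicate 1 or D0 replicate 2, and 5 without D0 replicate 3. It was 0 when the 5 TET_KO libraries were fitted alone, and 0 in the fit of 23 libraries with a term for replicate number (a replicate block). The number of naive tiles that fell was 11 without D2 replicate 1, 17 without D0 replicate 2 and between 18 and 21 without any other single TET_KO library.

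Jam2 (chromosome 16, 84774123 to 84826380) stood at -0.41 and -0.42 at D2, against 0.91, 0.82 and 1.14 at D0 (-1.38 ± 0.17, limma adjusted p = 0.00549), and it was called in each of the 5 fits that left out 1 TET_KO library, but not with the 5 TET_KO libraries fitted alone (0.207). Tfcp2l1 (chromosome 1, 118627923 to 118685168) stood at -0.92 and -1.31 at D2, against -0.05, -0.03 and -0.12 at D0 (-1.05 ± 0.15, adjusted p = 0.00549), and was not called without D2 replicate 3 (adjusted p = 0.112). For both genes every D2 library was below every D0 library. Tdh, the threonine dehydrogenase on which mouse stem cells depend (chromosome 14, 63492347 to 63509092), stood at -0.81 and -0.67 at D2, against 0.23, 0.54 and -0.13 at D0 (-0.95 ± 0.18, adjusted p = 0.0277). Tcl1, a coactivator of the Akt kinases (chromosome 12, 105216753 to 105222737), stood at -0.39 and -0.72 at D2, against 0.45, 0.42 and 0.19 at D0 (-0.91 ± 0.18, adjusted p = 0.0370), and its change was 0.0714 with no filter on low values. Zfp42, known as Rex1 (chromosome 8, 43295067 to 43307009), stood at -0.84 and -1.12 at D2, against -0.22, -0.43 and -0.19 at D0 (-0.70 ± 0.12, adjusted p = 0.0153). For these 3 genes too the D2 libraries were all below the D0 libraries, as was so for 11.3% of all neighbourhoods. Zfp42 was not called without D2 replicate 3 (adjusted p = 0.215), while Tdh and Tcl1 were called without D0 replicate 3 (0.0219 and 0.0488) and in no other such fit (0.0779 to 0.261 and 0.104 to 0.352). Nanog changed by -0.43 ± 0.12 (adjusted p = 0.130), Klf5 by -0.40 ± 0.11 (0.117), Tbx3 by -0.66 ± 0.17 (0.121) and Esrrb by -0.30 ± 0.16 (0.541), and the 3 positive members were Klf4 (0.03), Gbx2 (0.12) and Dppa4 (0.30).

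**Figure D2:**
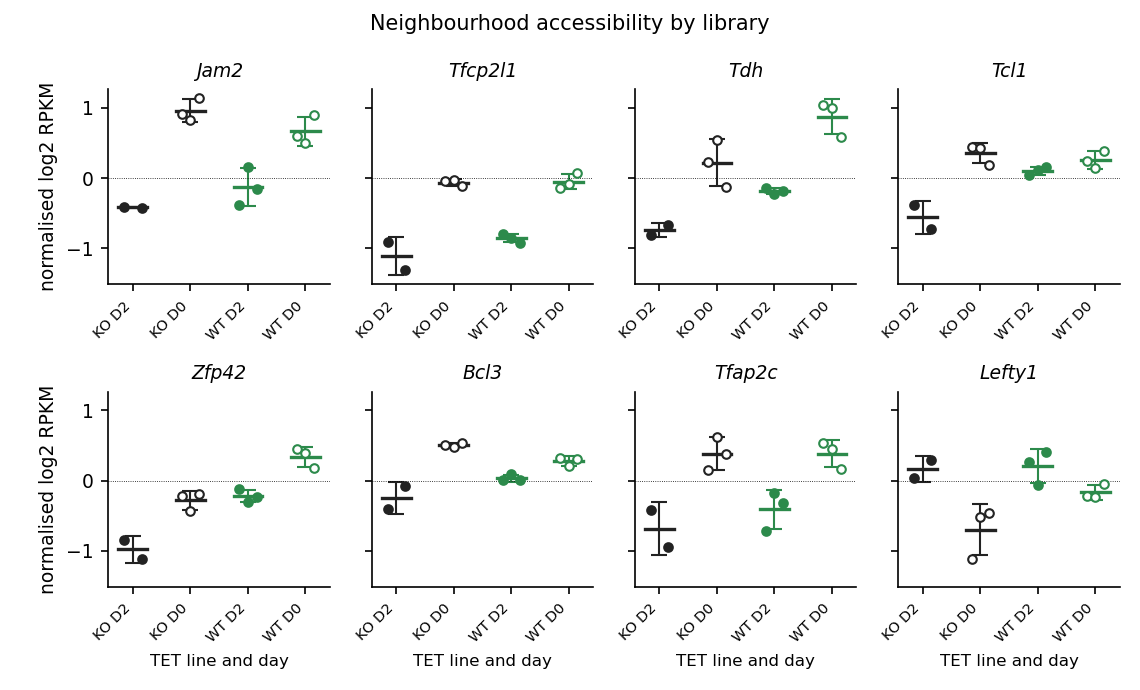
Level of 8 called neighbourhoods (normalised log2 RPKM, y axis) in each library of TET_KO (black) and TET_WT (green) at D2 (filled) and D0 (open), with bars for mean and SD. Each point is 1 library, and in TET_KO the D2 and D0 libraries are apart for all 8 genes.

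Several tiles fell at Tfcp2l1, Jam2 and Zfp42, while 1 tile was called at Tdh and 0 at Tcl1. Tfcp2l1 had 9 of 30 tested tiles lower at D2, the most of any gene, Jam2 and Klf2 had 4 each and Zfp42 had 3. Klf2, Klf5, Tbx3, Prdm14, Esrrb, Dppa2, Fbxo15 and Tdh also had tiles that fell, 4 at Klf2 and 1 at each of the others, and of these 8 genes only Tdh was called as a neighbourhood. The tile 2.95 kb before the start of Tfcp2l1 (chromosome 1, 118624001 to 118626000) had 4 and 6 reads at D2, against 36, 42 and 28 at D0 (-3.09 ± 0.28, limma adjusted p = 1.70e-05). The next 3 tested tiles past its start tile were not called (-0.28 ± 0.30, -1.27 ± 0.46 and -0.82 ± 0.39), and a run of 4 adjacent tiles 15.1 to 21.1 kb into the gene fell by 1.42 to 2.24. At Jam2 the tile 4.88 kb from the start, inside the gene (chromosome 16, 84778001 to 84780000), had 6 and 12 reads at D2, against 88, 82 and 101 at D0 (-3.53 ± 0.33, adjusted p = 1.73e-05). No D2 library had more than 12 reads there and no D0 library fewer than 82. At Prdm14, a repressor of the de novo methyltransferases, a tile 42.2 kb from the start had 9 and 21 reads at D2, against 52, 55 and 37 at D0 (-1.87 ± 0.23, adjusted p = 0.000238). At Klf2, a Krüppel-like factor, a tile 17.9 kb from the start had 2 and 11 reads at D2, against 29, 17 and 17 at D0 (-2.25 ± 0.37, adjusted p = 0.00246). The loci with several falling tiles were picked after their values were seen. Outside the naive list they included Tdrp (6 of 32 tiles), Sgk1 (5 of 22), Sh2d4b (5 of 19), Aff1 (4 of 22) and Tns3 (4 of 24).

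**Figure D3:**
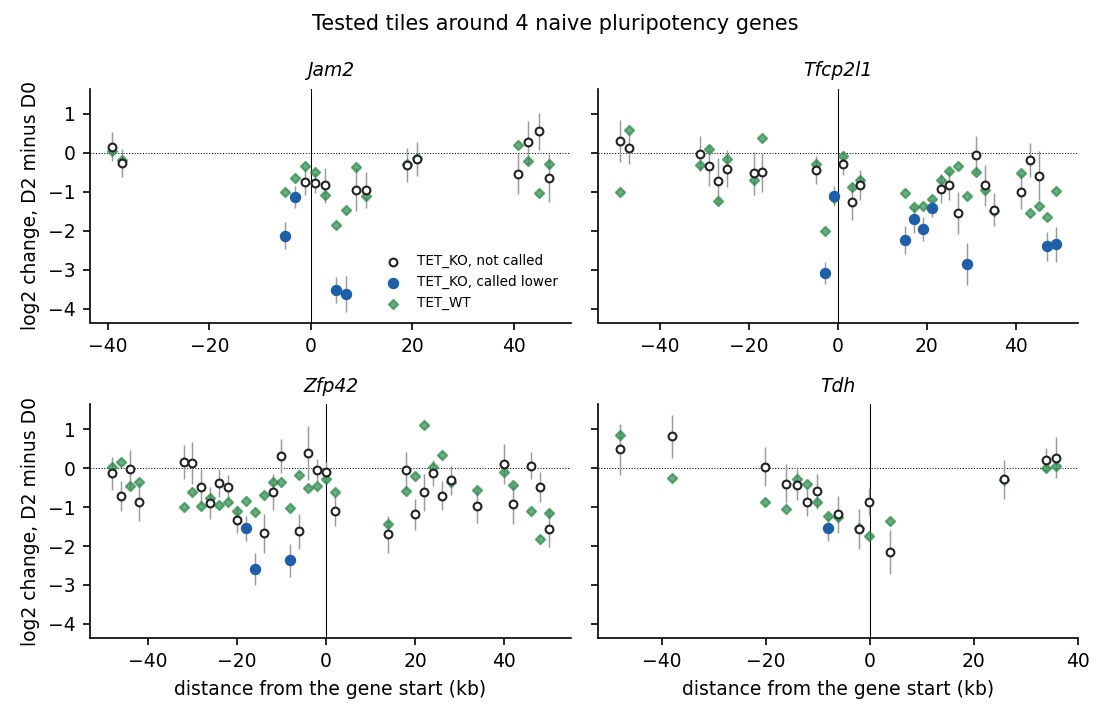
Log2 change, D2 minus D0, of each tested tile (y axis) by distance from the gene start in kb (x axis, negative towards lower coordinates) around Jam2, Tfcp2l1, Zfp42 and Tdh (the starts of Jam2 and Tdh are inferred), for TET_KO (circles, blue where called, with standard errors) and TET_WT (green diamonds). Called tiles lie on both sides of the starts of Jam2 and Tfcp2l1, and inside or beside Zfp42 and Tdh up to 18.0 kb away.

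Genes of the LIF pathway were measured because withdrawal of Lif ends this signal at the exit. Of 12 neighbourhoods, 2 fell and 0 rose, against 0.279% and 0.0833% of all neighbourhoods, with a median change of -0.04. They were Tfcp2l1, also in the naive list, and Bcl3, an atypical IκB protein (chromosome 7, 19808462 to 19822824), whose level was -0.41 and -0.08 at D2, against 0.51, 0.48 and 0.54 at D0 (-0.76 ± 0.12, limma adjusted p = 0.0116). Bcl3 lost its call without D2 replicate 1 (adjusted p = 0.204). Lifr, the receptor for LIF, changed by -1.03 ± 0.22 (adjusted p = 0.0519) and Il6st, its co-receptor gp130, by -0.62 ± 0.16 (adjusted p = 0.108). Of 154 tested tiles in the list 11 fell, against 0.895% of all tested tiles, with 9 of them at Tfcp2l1 and 2 at Lifr. The signal transducers Jak1 and Stat3 changed by 0.14 ± 0.26 and 0.28 ± 0.21 and were not called.

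Formative epiblast genes were not called as neighbourhoods in TET_KO. Of 17 measured, limma called 0, with 6 higher and 1 lower at an unadjusted p under 0.05, against 5.61% and 5.08% of all neighbourhoods. Limma voom on recovered reads called 4 higher. The median change was 0.28, against 0.05 over all neighbourhoods, and 13 of 17 were positive. Pou3f1, a POU factor of the formative state, came nearest, with -0.07 and 0.22 at D2 against -0.65, -0.63 and -0.57 at D0 (0.69 ± 0.16, adjusted p = 0.0677). Of 209 tested tiles near these genes, 4 rose and 1 fell, against 0.139% and 0.895% of all tested tiles. The 2 tiles at Dusp6 that rose lie on either side of this feedback phosphatase of the FGF-ERK pathway. The tile 2.23 kb from its start had 58 and 85 reads at D2, against 15, 23 and 13 at D0 (1.78 ± 0.31, adjusted p = 0.00450), and the other 23 and 34 at D2, against 7, 8 and 3 at D0 (2.03 ± 0.44, adjusted p = 0.0234). Grhl2, a factor of epithelial enhancers, had a tile with 12 and 30 reads at D2, against 6, 4 and 4 at D0 (1.82 ± 0.38, adjusted p = 0.0169), and Krt18 its start tile. The fall was near Zic5, 32.7 kb from its start (-1.90 ± 0.43, adjusted p = 0.0309). Without D2 replicate 1 no tile of the list was called higher, and without D2 replicate 3 or D0 replicate 1 there was 1.

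In TET_WT, 8 of the same 17 formative neighbourhoods were called higher and the median change was 0.52, against 0.627% called higher and 1.03% called lower among all neighbourhoods. The difference between the lines was tested itself, as an interaction, and none of the 17 passed (limma adjusted p of 1.00 each). The change of Dnmt3a, a de novo methyltransferase, was 0.18 ± 0.11 in TET_KO and 0.72 ± 0.10 in TET_WT, a difference of -0.54 ± 0.15 with an unadjusted p of 0.00248 in limma. That of Dnmt3b was 0.19 ± 0.20 in TET_KO and 0.77 ± 0.18 in TET_WT (difference -0.59 ± 0.27), of Fgf5, a growth factor of the epiblast, 0.40 ± 0.28 and 1.10 ± 0.25 (difference -0.71 ± 0.38), and of Grhl2 0.46 ± 0.20 and 1.00 ± 0.18 (difference -0.54 ± 0.27), TET_KO first in each pair. Across the list 14 of 17 differences were negative with a median of -0.27, against 9588 of 20414 and a median of 0.00 over all neighbourhoods. In the naive list 13 of 21 were negative with a median of -0.11. Tcl1 changed by -0.91 ± 0.18 in TET_KO and -0.15 ± 0.16 in TET_WT, a difference of -0.76 ± 0.24 that did not pass either. The formative list had a median change of 0.41 in DNMT_WT and 0.30 in DNMT_KO, against 0.06 and 0.07 over all neighbourhoods. In each of these lines 3 of the 17 were called higher. The share called higher among all neighbourhoods was not counted in these lines, so this count has no background beside it.

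Core pluripotency genes, which stay on in both states, were near the background. Of 9 neighbourhoods limma called 0, and the median change was 0.06. At an unadjusted p under 0.05, 2 were higher and 0 lower, against 5.61% and 5.08% of all neighbourhoods. Pou5f1 changed by -0.22 ± 0.18 and Sox2 by 0.06 ± 0.19. Beside the Utf1 start tile, which rose, a tile 20.2 kb from L1td1 fell, with 3 and 8 reads at D2 against 31, 14 and 15 at D0 (-2.19 ± 0.44, limma adjusted p = 0.0136).

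Of 14 neighbourhoods of the Nodal pathway, 2 rose and 0 fell, against 0.0833% and 0.279% of all neighbourhoods, with a median change of -0.06. Lefty1, a secreted inhibitor of Nodal (chromosome 1, 180935022 to 180938401), stood at 0.03 and 0.30 at D2, against -1.11, -0.52 and -0.46 at D0 (0.86 ± 0.17, limma adjusted p = 0.0323). Its D2 libraries lay above its D0 libraries, as was so for 16.8% of all neighbourhoods. The start tile of Nodal fell while its neighbourhood did not pass (-0.17 ± 0.17, adjusted p = 0.795), and the receptors Acvr1b, Acvr2a and Acvr2b and the transducers Smad2 and Smad3 had values between -0.39 and -0.04. Lefty1 kept its call only without D0 replicate 3 (adjusted p = 0.0298), and lost it without D2 replicate 1 (0.120), D2 replicate 3 (0.326), D0 replicate 1 (0.0712) or D0 replicate 2 (0.0570).

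Other pathways and lineages showed few or no calls. Tfap2c, a factor of trophoblast and germ cells (chromosome 2, 172545678 to 172558622), was the only called member of 11 trophoblast genes. It fell, as did 0.279% of all neighbourhoods, with -0.42 and -0.95 at D2 against 0.15, 0.62 and 0.37 at D0 (-1.07 ± 0.17, limma adjusted p = 0.0127). It was not called without D2 replicate 3 (adjusted p = 0.208) or D0 replicate 2 (0.0570). Limma called 0 neighbourhoods in the lists of FGF-ERK response (median 0.20), Wnt response (-0.01), BMP (0.15), adhesion (0.14), primitive streak and mesoderm (0.17), neuroectoderm (0.27), primitive endoderm (-0.16), fibroblast (0.07), germline (0.22), imprinted (0.06), two-cell-like (0.00), Hox (0.06), DNA methylation (-0.13) and housekeeping genes (0.04). At an unadjusted p under 0.05 these lists had between 0 and 5 members higher and between 0 and 3 lower. Among all neighbourhoods 5.61% were higher and 5.08% lower at this threshold. The 5 higher were neuroectoderm genes, among 14. Single tiles were called near some of these genes. In the FGF-ERK list 2 of 187 tested tiles rose, and 2 of 113 fell in the Wnt list and 2 of 189 in the DNA methylation list. The adhesion (of 125), primitive endoderm (of 65), trophoblast (of 112), germline (of 73) and imprinted (of 183) lists had 1 falling tile each. Of all tested tiles 0.895% fell and 0.139% rose. The 24 haematopoietic regulators measured, the lineage named in the title of the series, had a median change of 0.08, with 0 called in limma and 3 higher and 0 lower at an unadjusted p under 0.05. Of the 5 microRNA genes of the pluripotency clusters that were measured, limma called 0 (0 higher and 2 lower at an unadjusted p under 0.05), with a median of -0.54. Markers of other cell types were read as the mean level of each list minus that of all neighbourhoods. The fibroblast list stood at 0.07 and -0.11 at D2, against -0.14, -0.08 and -0.11 at D0, and the primitive endoderm list at 0.10 and -0.20 at D2, against 0.16, 0.09 and 0.12 at D0. The trophoblast list stood at 0.32 and 0.29 at D2, against 0.48, 0.51 and 0.38 at D0, lower at D2 in each library. Its mean includes the fall of Tfap2c, the largest of the list, while the median change of its 11 genes was -0.04, with 5 positive and 6 negative. The part of such cells in the falls was not tested.

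**Figure D4:**
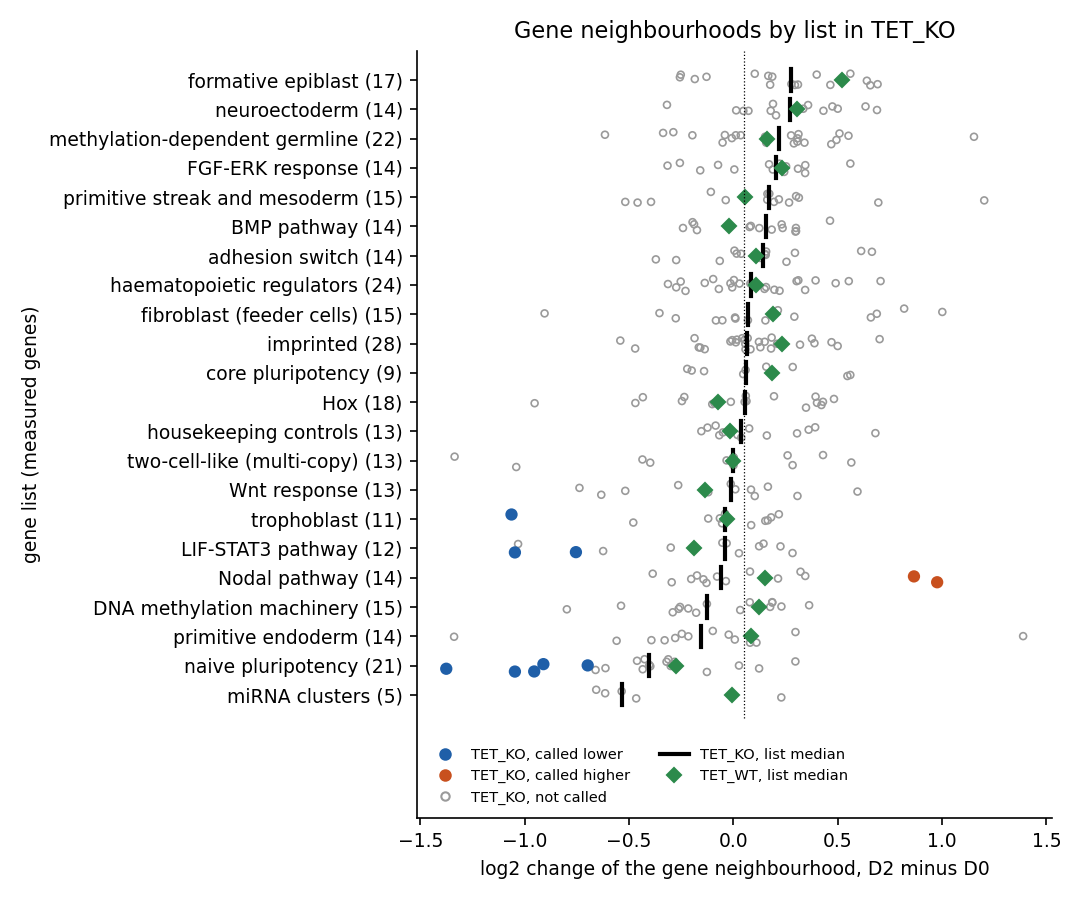
Log2 change of each measured gene neighbourhood in TET_KO, D2 minus D0 (x axis), by gene list (y axis), with filled points where called, a black bar at the TET_KO median and a green diamond at the TET_WT median. The dotted line is the median of all neighbourhoods, 0.05. The naive list holds 5 called falls and the Nodal list 2 called rises.

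The other lines were read at the tiles called in TET_KO, with which they share no library. Since the tiles were chosen on TET_KO values, a smaller change elsewhere is no test of a difference. Of the tiles that fell in TET_KO, 1125 of 1162 (96.8%) were also negative in TET_WT, and of those that rose 165 of 181 (91.2%) were positive, against the same sign at 60.9% of all tested tiles. The median change at tiles that fell was -1.93 in TET_KO, -1.16 in TET_WT, -1.24 in DNMT_KO and -1.27 in DNMT_WT. At tiles that rose it was 1.83 in TET_KO, 0.94 in TET_WT, 0.60 in DNMT_KO and 0.76 in DNMT_WT. Read the other way, the 993 tiles called lower in TET_WT had a median of -1.42 in TET_KO and -1.74 in TET_WT, and the 341 called higher in TET_WT had 0.95 in TET_KO and 1.71 in TET_WT. TET_KO and TET_WT shared 395 tiles called lower (34.0% of the TET_KO list and 39.8% of the TET_WT list) and 47 called higher (26.0% and 13.8%), and no tile was called in opposite directions. In DNMT_KO, 2.1% of tested tiles were called lower and 0.565% higher, in DNMT_WT 1.82% and 0.583%, and in TET_WT 0.765% and 0.263%. Tiles called lower in all 4 lines numbered 259 (22.3% of the TET_KO list) and tiles called higher in all 4 numbered 14 (7.73%). Another 408 falls and 111 rises were called in TET_KO and in no other line. Across all tested tiles the change in TET_KO correlated with that in TET_WT at r = 0.43, in DNMT_WT at r = 0.37 and in DNMT_KO at r = 0.34, as a description over tiles that are not independent.

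**Figure D5:**
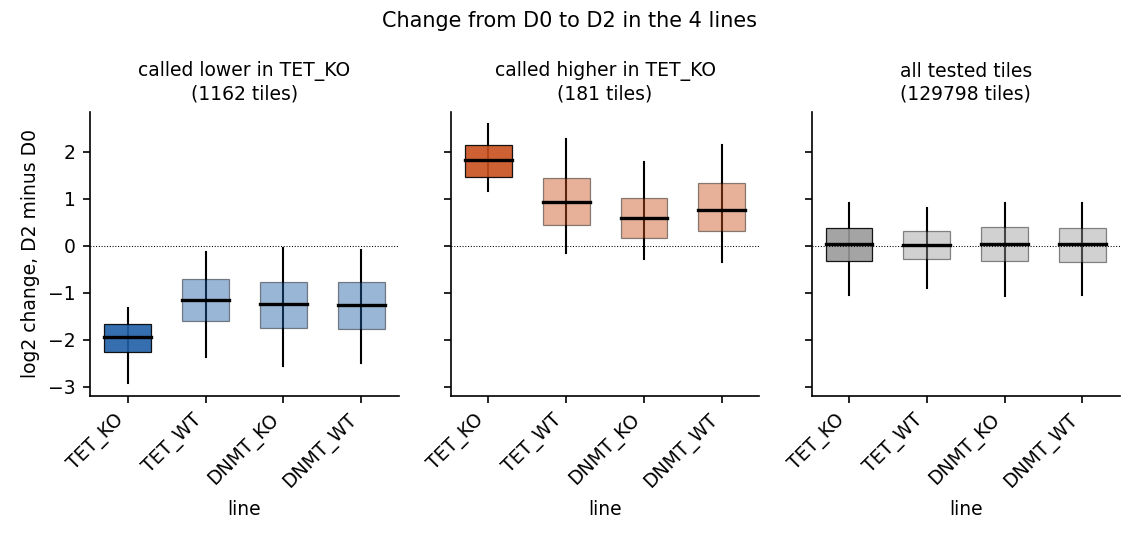
Log2 change, D2 minus D0 (y axis), in each of the 4 lines (x axis) at tiles called lower in TET_KO, at tiles called higher in TET_KO and at all tested tiles. Boxes run from the 25th to the 75th percentile with the median as a bar, and lines from the 5th to the 95th. The TET_KO boxes are of the values that chose the tiles, and the medians of the other lines lie on the same side of 0.

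No tile passed the test of the difference between the exits of TET_KO and TET_WT. Limma called 0 of 129798 tiles, with 5009 (3.86%) at an unadjusted p under 0.05 and a lowest adjusted p of 0.598, and 0 in limma voom on recovered reads. Of neighbourhoods it called 0 of 20414, with 776 (3.80%) at an unadjusted p under 0.05 and a lowest adjusted p of 0.252, and 2 in limma voom. The standard error of a difference was 0.61 log2 units in the median tile and 0.34 in the median neighbourhood, and these counts do not show that the exits were alike. Without TET_KO D2 replicate 3, 6 tiles passed, and without D2 replicate 1 or D0 replicate 1 there was 1.

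The median change per chromosome ran from -0.01 on chromosome 16 to 0.09 on chromosome 19, against 0.04 over all tested tiles. Called tiles made up between 0.638% (chromosome 9) and 1.44% (chromosome 18) of the tested tiles of a chromosome. Falls ran from 0.554% (chromosome 9) to 1.21% (chromosome 6) and rises from 0.0281% (chromosome 19) to 0.352% (chromosome 18). Chromosomes 1 and 8 held 31 and 34 of the 181 rises (0.258% and 0.226% of their tested tiles), against 0.113% on the 17 other autosomes. They also held 12011 and 15030 of the 129798 tested tiles. The part of copy number in these shares was not tested. In tiles outside the tested set, the relative read density was lower in every TET_KO library than in every TET_WT library on chromosomes 6, 8 and 14. It was 0.902 to 1.00 in TET_KO and 1.22 to 1.32 in TET_WT on chromosome 8, 0.952 to 0.986 in TET_KO and 1.21 to 1.27 in TET_WT on chromosome 14, and 0.969 to 1.02 in TET_KO and 1.09 to 1.16 in TET_WT on chromosome 6. These ranges run over both days, and the lines are compared here by their changes within a line, not by their levels.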

How the data were processed

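The authors deposited 1 matrix of log2 RPKM per 2 kb tile of GRCm38, 1362779 tiles in 35 ATAC-seq libraries, per the file headers. The submitters' processing notes name Trim Galore 0.6.5 with cutadapt 2.3 for trimming and, for alignment, Bowtie2 2.4.1. Shifting of transposase ends, duplicate removal and masking are not given in the sources used here. Whole reads were recovered from the steps of the values within 0.01 read, and an empty tile stands at 0.9 read. Intervals of counting error are not given, since PCR duplicates may be included.

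The 23 libraries of D0 and D2 were quantile normalised, and limma 3.58.1 (R 4.3.3) was run on them with a trended prior variance. The model had a mean per line and day (8 groups), and p-values were adjusted by Benjamini-Hochberg. The D1 libraries were left out of the fit. Mitochondrial tiles held 5.62 to 46.8% of their reads, against 0 at D0 and D2. The reads in tiles of the D1 libraries were 2.03 to 2.05 times the total behind the RPKM. At D0 and D2 they were 1.15 times this total in TET_KO and TET_WT and 1.02 times in DNMT_KO and DNMT_WT. The TET and DNMT families thus differed as well, and the cause was not tested. TET_KO replicate 2 at D2 was not analysed here. Tested tiles were the top 10% of 1231381 autosomal tiles by mean (from -0.67 log2 RPKM) plus tiles with a gene start. Starts came from the RefSeq promoter table (GRCm38.p6) for 16461 genes. For another 4218 the more accessible end of the gene was taken, a choice that gave the start of 85.0% of table genes over 10 kb. Of 342 genes in 22 lists, 329 were placed on autosomes. The members and the lists were chosen with earlier results of these data known. Genes named are Tet1, Tet2 and Tet3, up to 6 called neighbourhoods per list by size, the 12 largest rises and falls among called tiles with 1 tile per gene, up to 8 start tiles per direction and called tiles near list genes, and other list genes are given as values. Of the genes so chosen, 3 are not reported here. The D2 and D0 replicates share the numbers 1 and 3, and the deviations of libraries of a number correlated with r = -0.04 and -0.05. With 2 libraries at D2 their deviations mirror each other, so these are not separate checks and cannot exclude pairing. Tables were handled in Python 3.11.15 with numpy 2.4.6 and pandas 2.3.3. The alternatives tried were other sets of libraries, scalings, filters, pseudocounts, windows, a replicate block and leaving out each library.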

Additional observations from a re-analysis of the deposited data

How the results depend on the processing

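None of the 24 named tiles, 19 start tiles or 17 neighbourhoods changed sign in any alternative, with 2 exceptions. The neighbourhoods of Spam1 (0.0720) and Tcl1 (0.0714) turned positive with no filter on low values, where a neighbourhood averages many near-empty tiles. All these items were chosen for their calls on the same libraries, so the kept signs were largely fixed by the choice and are no test. The counts moved. Leaving out 1 TET_KO or TET_WT library in turn gave 579 to 1307 changed tiles, 10 to 165 higher and 537 to 1143 lower, with 0 to 6 tiles that differed between TET_KO and TET_WT. In these fits 76.8 to 100% of higher tiles and 86.6 to 97.8% of lower tiles had the same sign in TET_WT. A gene start from the promoter table, the only kind counted in this section, lay in 10.0 to 16.0% and 2.10 to 3.16%. These fits gave 11 to 26 lower tiles near naive genes, 0 to 4 higher ones near formative genes and 6 to 80 changed neighbourhoods. Of neighbourhoods, 0 to 16 were higher, 6 to 64 lower, and 1 to 5 naive ones were called. Without TET_KO D2 replicate 1 there were 14 changed neighbourhoods, without D2 replicate 3 there were 6, and without D0 replicate 2 there were 24. Naive neighbourhoods numbered 3, 1 and 3 in the same order.

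With all 35 libraries 290 tiles were higher, 1 differed between the lines, and 114 neighbourhoods changed (26 higher, 88 lower). With the TET family only these were 293, 1 and 36 (7 and 29), 2 naive neighbourhoods were called, and 3.49% of lower tiles held a gene start. With the 5 TET_KO libraries only, 24.7% of higher and 4.55% of lower tiles held a start, 16 naive tiles were lower and 1 formative tile higher, and 1 neighbourhood was called (1 higher, 0 lower, 0 naive). Values as deposited gave 2107 changed tiles (1873 lower) and 5 higher neighbourhoods, and centring chromosomes gave 278 higher tiles. Voom on recovered reads gave 301 higher tiles, of which 96.3% had the same sign in TET_WT, 1.25% of lower tiles with a start, and 518 neighbourhoods (177 higher, 341 lower), 9 of them naive and 4 formative, with 2 that differed between the lines. Reads thinned to the smallest library gave 740 tiles (93 higher, 647 lower), 93.5% of lower tiles with the same sign in TET_WT, 19.4% of higher tiles with a start, 2 formative tiles, 42 neighbourhoods (7 higher, 35 lower), 3 of them naive, and a naive median of -0.40 relative to all neighbourhoods, against -0.45 in the reported fit. With a pseudocount of 1 read per megaread the naive median was -0.27, the formative one 0.14 (against 0.23) and 97.8% of lower tiles had the same sign in TET_WT. The top 5% of tiles gave 20.9% and 3.41% of higher and lower tiles with a start, 2 formative tiles, 158 neighbourhoods (27 higher, 131 lower) and a naive median of -0.52. No filter gave 1 tile that differed between the lines, 84.6% and 94.0% of higher and lower tiles with the same sign in TET_WT, 4.86% and 1.03% with a start, 25 neighbourhoods (7 higher, 18 lower), of which 2 were naive and 1 formative, and a naive median of -0.34. Without the trend 1 formative neighbourhood was called. Windows of 20 kb gave 10 higher neighbourhoods, and windows of 100 kb a formative median of 0.14. The cause of these shifts was not tested.

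The labels do not say whether replicate numbers pair libraries, and the correlation of their deviations cannot exclude it. With a replicate block 336 tiles changed (42 higher, 294 lower), 85.7% of higher tiles had the same sign in TET_WT, 28.6% of higher and 4.08% of lower tiles held a start, 14 naive tiles were lower, 1 formative tile was higher, and 1 neighbourhood was called (0 higher, 1 lower, 0 naive). The limits are depth, at a median of 9 to 19 reads per tested tile, and 2 libraries at D2.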

Other observations

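Outside the gene lists, the called neighbourhoods held several genes of known function. Fancm, a helicase of DNA repair, changed by -1.16 ± 0.16 (limma adjusted p = 0.00549) and by -1.01 in TET_WT. Usp48, a deubiquitinase, changed by -1.27 ± 0.18 (adjusted p = 0.00549) and by -0.28 in TET_WT. Other called falls were at Oas1g, of the oligoadenylate synthetase family (-1.60), Phf11d (-1.56) and Xaf1, a partner of the apoptosis inhibitor XIAP (-1.31). Cd9, a tetraspanin of the stem cell surface, changed by -0.67, and Sgk1, a kinase of the glucocorticoid response, by -1.02. Among the rises were Slc27a2, a fatty acid transporter (1.15 ± 0.20, adjusted p = 0.0153), Car4, a carbonic anhydrase (1.19 ± 0.25, adjusted p = 0.0499, and 1.11 in TET_WT), Shisa6, a regulator of glutamate receptors (1.10 ± 0.23, adjusted p = 0.0480, and 1.23 in TET_WT), Nrp1, a semaphorin and VEGF co-receptor (0.74), Sall2 (0.67), Zfhx3 (0.58) and Mt3 (0.76). These genes were picked after their values were seen. Slc27a2 lost its call without D2 replicate 1 (adjusted p = 0.175), D2 replicate 3 (0.151) or D0 replicate 2 (0.0723). Car4 was called only without D0 replicate 1 (adjusted p = 0.0472) among the fits that left out 1 TET_KO library, and Shisa6 in none of them (0.0850 to 0.332).

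The TET_KO libraries of D1 were read at the tiles called between D2 and D0, on a scale shared by all 35 libraries. At tiles that opened, the median level was -0.91, -0.74 and -0.59 at D0, 0.45, 0.62 and 0.63 at D1 and 1.12 and 1.10 at D2. At tiles that closed it was 1.05, 1.07 and 1.06 at D0, -0.07, 0.02 and 0.15 at D1 and -0.97 and -0.96 at D2. The D1 values lay between the other days in each library. The D1 libraries differed from those of D0 and D2 in mitochondrial reads and in the total behind the RPKM, and the tiles were chosen on D0 and D2, so no test was made.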
